A study of Mus musculus with 18 samples.

Results

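The genes described here are 45 genes of DNA replication and mitosis, found by symbol in both deposited count tables among 23420 genes: 24 act in the replication of DNA and its supply (Mcm2 to Mcm7, Mcm10, Cdt1, Cdc6, Orc1, Gins1, Gins2, Cdc45, Pcna, Rrm1, Rrm2, Tyms, Ccne1, Ccne2, E2f1, Chaf1a, Chaf1b, Uhrf1 and Slbp) and 21 act in mitosis (Mki67, Top2a, Ccna2, Ccnb1, Ccnb2, Cdk1, Aurka, Aurkb, Bub1, Bub1b, Plk1, Cenpe, Cenpf, Kif11, Kif20a, Kif23, Birc5, Tpx2, Cdc20, Prc1 and Nusap1). They were listed by name, with no cut on their measured values in the rule, and all 45 passed the filter on low counts. These genes and the other lists used below were, however, chosen with earlier results of these data known. The cells were primary cardiac fibroblasts of CD1 mice, cultured without any sorting step in the labels, and RNA was sequenced in bulk. Every library described here carried the same reprogramming treatment, a retrovirus with Mef2c, Gata4 and Tbx5 on 1 transcript (MGT), which drives fibroblasts towards a cardiomyocyte-like state. In the second set of samples, short hairpin RNAs (shRNAs) were directed at Mtfr1l, whose product sits on mitochondria (group shMtfr1l), at Opa1, a GTPase needed for fusion of the mitochondrial inner membrane (group shOpa1), or at both (group shMtfr1l + shOpa1, called the double knockdown), against a non-targeting shRNA (shNT). Each of these 4 groups had 3 libraries, with days 7, 8 and 9 in the titles of replicates 1, 2 and 3, so that day and replicate cannot be told apart. The genotype field of replicates 2 and 3 reads shOpa2 and shOpa3 where the titles read shOpa1, and the groups follow the titles. The first set had 1 reprogramming sample labelled shMtfr1l with an 85% knockdown and 1 labelled shNT, both at day 7. The labels do not say whether the replicates came from separate isolations, so p-values measure the spread between these libraries only.

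Before a cell copies its DNA, the origin recognition complex (with Orc1), Cdc6 and Cdt1 load the ring of Mcm2 to Mcm7 onto origins, and Cdc45 and the GINS complex turn that ring into the active helicase. Cyclin E with its kinase, ribonucleotide reductase (Rrm1 and Rrm2) and the sliding clamp Pcna then drive synthesis, and E2F factors switch on most of these genes in late G1. Genes of mitosis are switched on later, in G2, through MuvB complexes, B-Myb and Foxm1. Their products condense chromosomes, build the spindle and split the cell. Fibroblasts in culture divide, whereas mature cardiomyocytes have mostly left the cell cycle.

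The promoters of the 2 sets of genes differ in their letters. RefSeq promoter windows (GRCm38.p6, 300 bases: 250 before the start site and 50 after it) were found for 37 of the 45 genes. The letters TTTCGCGC or TTTGGCGC, a strict spelling of the E2F site searched on both strands, stood in 7 of 22 windows of replication genes (31.8%), in 1 of 18 windows of mitosis genes (5.56%, Cdk1) and in 0.813% of all 32851 windows. The letters TTTGAA, the cell cycle homology region (CHR) to which MuvB complexes bind, also searched on both strands, stood in 2 replication windows (9.09%), in 13 mitosis windows (72.2%) and in 17.9% of all windows. CCAAT, the box of the factor NF-Y, stood in 72.7% of replication windows, in 88.9% of mitosis windows and in 37.4% of all windows, searched on both strands. E2F matches on opposite strands overlapped each other in Mcm5 and Mcm6, an E2F match overlapped a CCAAT in Mcm7, and no CHR match overlapped another motif in the windows of the 37 genes. The genes with an E2F match were Mcm3, Mcm5, Mcm6, Mcm7, Cdt1, Orc1 and Uhrf1. These are matches of letters and were not tested as sites. Of the 4 stretches upstream of the start site shown here, the replication genes Mcm5 (chr8:75109349-75109508, plus strand) and Mcm6 (chr1:128359706-128359825, minus strand) carry the E2F letters in capitals, where a match on each strand overlaps its neighbour. The mitosis genes Cdk1 (chr10:69352913-69353052, minus strand) and Mki67 (chr7:135716380-135716509, minus strand) carry the CHR letters in capitals, and the E2F match of Cdk1 is left in lower case.
Mcm5: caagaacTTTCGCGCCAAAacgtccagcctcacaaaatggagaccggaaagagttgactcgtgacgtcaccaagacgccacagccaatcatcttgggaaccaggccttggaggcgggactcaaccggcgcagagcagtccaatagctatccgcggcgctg
Mcm6: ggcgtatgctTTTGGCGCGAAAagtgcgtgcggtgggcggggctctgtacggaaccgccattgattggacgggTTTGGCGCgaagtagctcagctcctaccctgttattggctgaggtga
Cdk1: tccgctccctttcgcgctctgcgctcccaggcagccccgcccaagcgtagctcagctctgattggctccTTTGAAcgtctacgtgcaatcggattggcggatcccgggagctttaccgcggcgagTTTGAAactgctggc
Mki67: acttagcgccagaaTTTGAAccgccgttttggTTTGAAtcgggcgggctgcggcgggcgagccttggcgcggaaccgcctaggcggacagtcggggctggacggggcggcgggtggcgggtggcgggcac

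Depth in the second set ran from 16205862 to 25317069 counts per library, where 3 counts correspond to 0.117 to 0.183 CPM (counts scaled to library size with TMM). Mtfr1l had 15.7, 13.9 and 19.5 CPM in shMtfr1l libraries and 22.8, 31.05 and 27.8 CPM in double-knockdown libraries, against 69.4, 69.5 and 76.7 CPM in shNT libraries. Opa1 had 7.43, 6.85 and 12.6 CPM in shOpa1 libraries and 20.7, 15.99 and 18.2 CPM in double-knockdown libraries, against 57.0, 72.6 and 59.7 CPM in shNT libraries. Both targets were lowered where the labels say so. Fibroblast genes stood high in every library, with 29770 to 35866 CPM over 7 markers, and 7 cardiomyocyte markers summed to 3040 to 3261 CPM in shMtfr1l libraries, 1425 to 1574 CPM in shOpa1 libraries and 1853 to 1907 CPM in double-knockdown libraries, against 2335 to 2393 CPM in shNT libraries. Macrophage and leukocyte markers (Ptprc, Cd68, Csf1r, Lyz2 and Itgam) summed to 126 to 458, 216 to 518 and 515 to 667 CPM in the shMtfr1l, shOpa1 and double-knockdown libraries, against 252 to 368 CPM in shNT libraries, and the T cell gene Cd3e had 0 counts in all 12.

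Per kilobase of gene, replication and mitosis genes stood at moderate levels in these cultures. Over the 12 libraries the mean level ran from 1.38 RPKM (CPM per kilobase of exon) for the loading factor Cdc6 to 30.1 RPKM for the clamp Pcna, with Rrm1 at 27.9, Mcm6 at 26.2 and Mcm3 at 24.3 RPKM next below Pcna. Among mitosis genes the topoisomerase Top2a stood highest at 23.3 RPKM and the kinetochore gene Cenpf lowest at 2.58 RPKM. As a sum over the 24 replication genes, shOpa1 libraries had 905, 843 and 967 CPM, double-knockdown libraries 901, 869 and 884 CPM and shMtfr1l libraries 737, 791 and 761 CPM, against 755, 724 and 714 CPM in shNT libraries. Every shOpa1 and double-knockdown library lay above every shNT library, while shMtfr1l overlapped shNT. As a sum over the 21 mitosis genes, shOpa1 libraries had 884, 849 and 951 CPM, double-knockdown libraries 941, 905 and 1014 CPM and shMtfr1l libraries 915, 968 and 882 CPM, against 855, 849 and 843 CPM in shNT libraries. Every double-knockdown and shMtfr1l library lay above every shNT library in the mitosis sum. That of shOpa1 replicate 2 lay within the shNT range, so shOpa1 overlapped shNT there. The ratio of the replication sum to the mitosis sum was 1.01 ± 0.0161 in shOpa1 libraries, 0.930 ± 0.0499 in double-knockdown libraries and 0.828 ± 0.0307 in shMtfr1l libraries, against 0.861 ± 0.0193 in shNT libraries (SD, n = 3 each). In bulk RNA a change in the number of dividing cells and a change in RNA per dividing cell cannot be told apart.

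**Figure D1:**
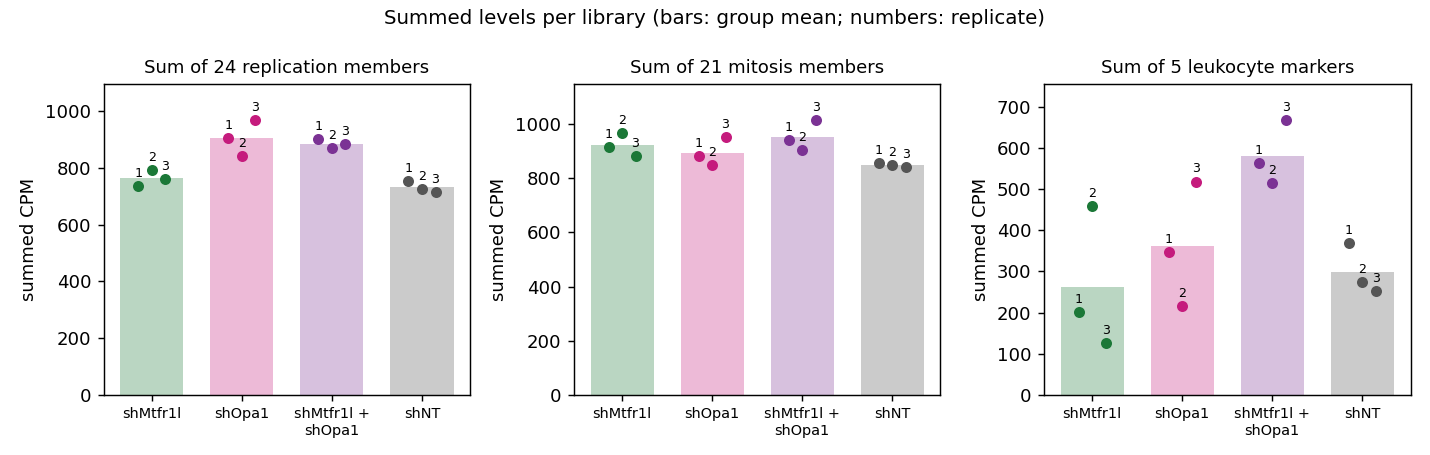
Summed CPM of the 24 replication genes, the 21 mitosis genes and 5 macrophage and leukocyte markers in each second-set library (points, numbered by replicate; bars, group mean). The replication sums of shOpa1 and double-knockdown libraries (843 to 967 CPM) lie above those of shNT libraries (714 to 755 CPM), and the mitosis sums differ less. The leukocyte marker sums run from 515 to 667 CPM in double-knockdown libraries and from 252 to 368 CPM in shNT libraries.

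Part of the replication genes, led by the helicase ring, rose with Opa1 knockdown, alone or with Mtfr1l knockdown, and fewer mitosis genes passed. In shOpa1 against shNT, 10 of 24 replication genes were higher and 1 was lower by edgeR's quasi-likelihood test at an adjusted p under 0.05, where 28.8% of all 14162 genes tested passed, 14% higher and 14.8% lower. Of the 21 mitosis genes 2 were higher and 0 lower in the same comparison. The median log2 fold change was 0.30 for replication genes and 0.04 for mitosis genes, beside 0.01 for all genes. In the double knockdown against shNT, 9 replication genes and 3 mitosis genes were higher and 0 lower, where 11.8% of all genes were higher and 11.6% lower, with medians of 0.32 and 0.20. In shMtfr1l against shNT, 1 replication gene and 0 mitosis genes passed, where 9.79% of all genes passed, 5% higher and 4.79% lower. The medians there were 0.03 for replication genes and 0.12 for mitosis genes. Of the 21 mitosis genes 5 had an unadjusted p under 0.05, beside 3063 of all 14162 genes, and DESeq2 called 1 mitosis gene. These comparisons share the shNT libraries. Markers of other cells moved with these comparisons. Of 5 leukocyte markers 4 rose in the double knockdown against shNT and 0 passed in shOpa1 or shMtfr1l. In shOpa1 all 5 had a positive log2 fold change (median 0.58, smallest adjusted p = 0.0613), and in shMtfr1l 3 did (median 0.04). Of 7 cardiomyocyte markers 5 fell in shOpa1, 3 fell and 1 rose in the double knockdown, and 6 rose and 1 fell in shMtfr1l. Of 7 fibroblast markers 3 rose and 2 fell in shOpa1, 2 rose and 2 fell in the double knockdown, and 1 rose and 3 fell in shMtfr1l. Of 5 epicardial and mesothelial markers 2 fell in shOpa1, 4 in the double knockdown and 3 in shMtfr1l, with sums of 139 to 162, 133 to 154 and 127 to 132 CPM in those libraries, against 187 to 202 CPM in shNT libraries. The part of these cells in the counts of replication and mitosis genes was not tested.

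**Figure D2:**
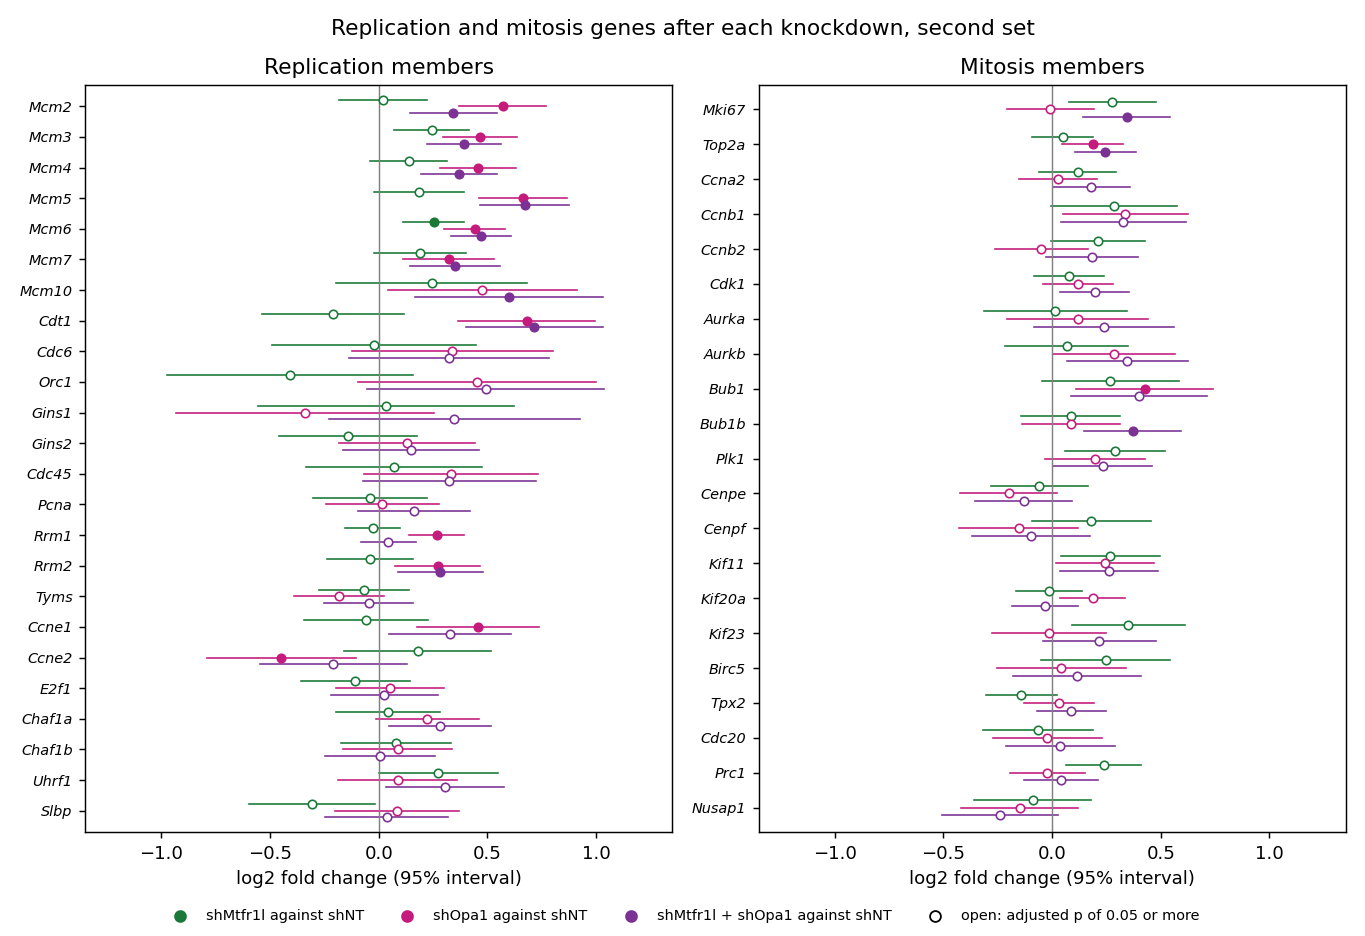
Log2 fold change of each replication gene (left) and mitosis gene (right) against shNT with its 95% interval, for shMtfr1l, shOpa1 and the double knockdown (3 libraries each; filled points have an adjusted p under 0.05). The filled points sit mostly in the upper rows of the left panel, Mcm2 to Mcm7 and Cdt1, for shOpa1 and the double knockdown.

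All 6 subunits of the Mcm2 to Mcm7 helicase ring rose in shOpa1 against shNT and in the double knockdown against shNT. Mcm5 (chr8:75109528-75128439, mm10) had 69.1, 59.0 and 67.5 CPM in shOpa1 libraries and 66.6, 62.9 and 66.9 CPM in double-knockdown libraries, against 45.9, 41.5 and 36.2 CPM in shNT libraries. Its shMtfr1l libraries had 44.8, 53.8 and 41.9 CPM. The libraries with Opa1 knockdown, alone or combined, therefore lay above all others, and Mcm5 was 1.59-fold higher in shOpa1 (log2 0.67 ± 0.10 SE, adjusted p = 1.56e-05) and 1.59-fold higher in the double knockdown (0.67 ± 0.10, adjusted p = 2.5e-05). Mcm2 (chr6:88883474-88898780) had 77.9, 81.7 and 102 CPM in shOpa1 libraries and 84.0, 67.8 and 72.0 CPM in double-knockdown libraries, against 56.7, 59.5 and 59.9 CPM in shNT libraries. It was 1.49-fold higher in shOpa1 (0.57 ± 0.10, adjusted p = 7.31e-05) and 1.27-fold higher in the double knockdown (0.34 ± 0.10, adjusted p = 0.0108), and the second value did not hold without double-knockdown replicate 1 (adjusted p = 0.0935). Mcm2 of shMtfr1l libraries, at 58.4, 65.1 and 55.3 CPM, overlapped shNT.

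Mcm6 (chr1:128331591-128359656) was the helicase subunit that also passed with Mtfr1l knockdown alone. It had 71.8, 71.8 and 76.9 CPM in shMtfr1l libraries, 83.2, 79.9 and 88.2 CPM in shOpa1 libraries and 84.3, 86.3 and 86.0 CPM in double-knockdown libraries, against 65.3, 59.6 and 60.2 CPM in shNT libraries. The 4 groups stood in the order shNT, shMtfr1l, then shOpa1 and the double knockdown, which overlapped each other. Mcm6 was 1.19-fold higher in shMtfr1l (0.25 ± 0.07, adjusted p = 0.0174), 1.36-fold higher in shOpa1 (0.44 ± 0.07, adjusted p = 2.23e-05) and 1.39-fold higher in the double knockdown (0.47 ± 0.07, adjusted p = 1.74e-05). The shMtfr1l call was lost when shMtfr1l replicate 3 (0.0814) or shNT replicate 2 or 3 (0.082 and 0.0713) was left out. Mcm3 had 79.5, 71.3 and 87.9 CPM in shOpa1 libraries, 71.7, 78.0 and 77.0 CPM in double-knockdown libraries and 65.0, 75.6 and 63.8 CPM in shMtfr1l libraries, against 57.8, 59.5 and 55.4 CPM in shNT libraries. Each knockdown group lay above shNT, and the rise passed in shOpa1 (1.38-fold, adjusted p = 0.000131) and in the double knockdown (1.31-fold, adjusted p = 0.00116), with shMtfr1l at 1.18-fold (adjusted p = 0.0694).

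Mcm4 and Mcm7 complete the ring. Mcm4 had 66.5, 64.8 and 72.3 CPM in shOpa1 libraries, 64.2, 57.1 and 70.6 CPM in double-knockdown libraries and 52.5, 53.9 and 57.0 CPM in shMtfr1l libraries, against 46.4, 53.1 and 48.7 CPM in shNT libraries. It was 1.37-fold higher in shOpa1 (adjusted p = 0.000221) and 1.29-fold higher in the double knockdown (adjusted p = 0.00243), and the second value was 0.0561 and 0.0633 without replicates 1 and 3 of every group. Mcm7 had the smallest rise of the 6 in shOpa1. It had 32.3, 31.9 and 33.9 CPM in shOpa1 libraries, 34.3, 32.3 and 33.6 CPM in double-knockdown libraries and 32.2, 28.3 and 28.9 CPM in shMtfr1l libraries, against 29.0, 25.97 and 23.6 CPM in shNT libraries. The shOpa1 rise of 1.251-fold (adjusted p = 0.0182) did not hold without shOpa1 replicate 3 (0.0622), shNT replicate 2 (0.0533) or shNT replicate 3 (0.104). The double-knockdown rise of Mcm7 by 1.28-fold (adjusted p = 0.0124) did not hold without shNT replicate 3 (0.0803).

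**Figure D3:**
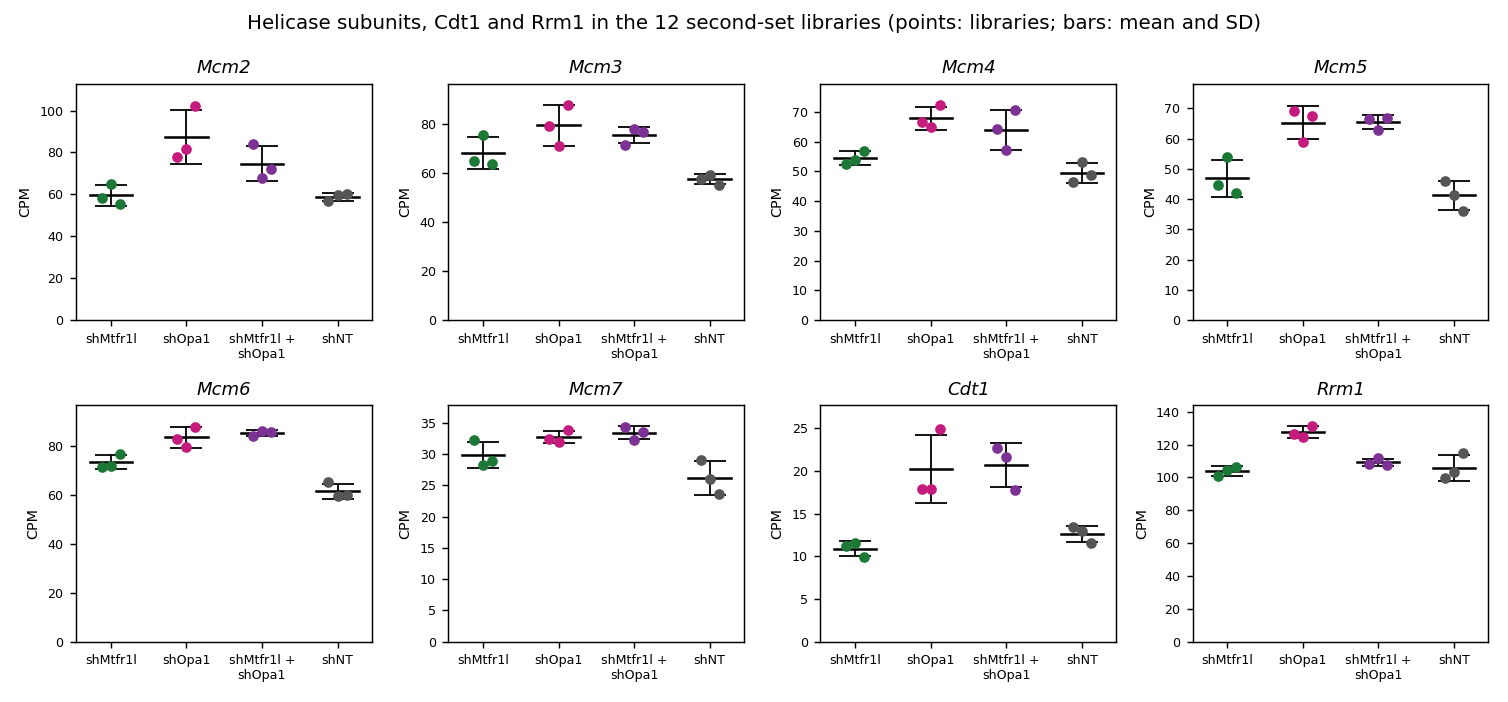
CPM of the 6 helicase subunits, the loading factor Cdt1 and the reductase subunit Rrm1 in the 12 second-set libraries (points, with group mean and SD). For Mcm2, Mcm4 (narrowly), Mcm5, Mcm6 and Cdt1 the shOpa1 and double-knockdown libraries lie above all shMtfr1l and shNT libraries. For Rrm1 the shOpa1 libraries alone do, at 125 to 131 CPM.

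Among the factors that load and fire the helicase, Cdt1 changed most. Cdt1 (chr8:122568015-122573130), which brings the Mcm ring to origins, had 17.9, 17.9 and 24.8 CPM in shOpa1 libraries and 22.7, 21.6 and 17.7 CPM in double-knockdown libraries, against 13.4, 12.9 and 11.5 CPM in shNT libraries. In shMtfr1l libraries it had 11.2, 11.6 and 9.92 CPM. It rose 1.60-fold in shOpa1 (0.68 ± 0.15, adjusted p = 0.00147) and 1.64-fold in the double knockdown (0.72 ± 0.15, adjusted p = 0.00133), while shMtfr1l overlapped shNT (log2 -0.21 ± 0.16, adjusted p = 0.489). Without replicate 3 of every group the shOpa1 value of Cdt1 was just past the threshold (adjusted p = 0.0568).

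Mcm10, which helps the assembled helicase start, had 12.1, 8.37 and 13.6 CPM in double-knockdown libraries, 9.90, 12.03 and 9.30 CPM in shOpa1 libraries and 6.81, 11.1 and 8.70 CPM in shMtfr1l libraries, against 8.24, 7.88 and 6.33 CPM in shNT libraries. The double knockdown lay 1.52-fold higher (adjusted p = 0.04), and with the replicate number as a block the adjusted p was 0.0568. The call also did not hold without double-knockdown replicate 1 (0.121) or 3 (0.194), or shNT replicate 2 (0.075) or 3 (0.162). Orc1, the largest subunit of the origin recognition complex, had 8.50, 7.86 and 6.34 CPM in double-knockdown libraries and 6.24, 8.56 and 7.30 CPM in shOpa1 libraries, against 6.29, 4.57 and 5.34 CPM in shNT libraries, and neither difference passed (adjusted p = 0.195 for the double knockdown and 0.219 for shOpa1). Its shMtfr1l libraries, at 5.09, 2.10 and 4.93 CPM, held the lowest value of the 12.

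Cdc6 and Cdc45 stood a little higher with Opa1 knockdown but did not pass. Cdc6 averaged 7.29 ± 0.853 CPM in shOpa1 and 7.21 ± 0.970 CPM in double-knockdown libraries, against 5.74 ± 1.32 CPM in shNT libraries (SD, n = 3 each). Cdc45 averaged 11.1 ± 1.68 CPM in shOpa1 and 11.1 ± 0.820 CPM in double-knockdown libraries, against 8.86 ± 1.45 CPM in shNT libraries. For Cdc45 the 95% interval of the log2 fold change ran from -0.07 to 0.73 in shOpa1, a range that holds the 0.67 of Mcm5. The GINS subunit Gins1, at 2.47 to 6.02 CPM over all libraries, had the lowest mean CPM of the 45, and its interval in shOpa1 ran from -0.93 to 0.26. Gins2 averaged 21.7 ± 1.01 CPM in shOpa1 libraries, against 19.9 ± 3.55 CPM in shNT libraries. Pcna, the clamp that holds polymerases on DNA, averaged 37.4 ± 5.37 CPM in shOpa1, 41.3 ± 5.20 CPM in double-knockdown and 36.0 ± 5.14 CPM in shMtfr1l libraries, against 37.0 ± 4.80 CPM in shNT libraries. Its interval in shOpa1, -0.24 to 0.28, lay below the point estimate of each of Mcm2 to Mcm7, which have intervals of their own. A difference between these genes and Pcna was not tested.

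Nucleotide supply genes split. Rrm1 (chr7:102441695-102469771), the large subunit of ribonucleotide reductase, had 126, 125 and 131 CPM in shOpa1 libraries, 108, 112 and 108 CPM in double-knockdown libraries and 101, 104 and 107 CPM in shMtfr1l libraries, against 99.8, 103 and 115 CPM in shNT libraries. Only the shOpa1 libraries stood apart, with a 1.20-fold rise (0.27 ± 0.06, adjusted p = 0.00172). The double knockdown overlapped shNT (log2 0.04 ± 0.06, adjusted p = 0.663). Rrm2, the small subunit whose amount follows S phase, had 45.8, 38.2 and 46.7 CPM in shOpa1 libraries, 44.9, 42.1 and 44.9 CPM in double-knockdown libraries and 34.7, 33.6 and 37.1 CPM in shMtfr1l libraries, against 39.2, 34.0 and 35.2 CPM in shNT libraries. It passed in shOpa1 (1.21-fold, adjusted p = 0.0336) and in the double knockdown (1.22-fold, adjusted p = 0.0305). The shOpa1 call of Rrm2 did not hold without shOpa1 replicate 1 (0.121) or 3 (0.146), or shNT replicate 2 (0.135) or 3 (0.0998), and the double-knockdown call did not hold without double-knockdown replicate 1 (0.0911) or 3 (0.0865), or shNT replicate 2 (0.128) or 3 (0.0971). Tyms, which makes thymidylate, averaged 34.3 ± 2.74 CPM in shOpa1 and 37.7 ± 4.16 CPM in double-knockdown libraries, against 38.9 ± 2.63 CPM in shNT libraries, and passed in no comparison of knockdown groups.

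The 2 cyclin E genes, whose proteins activate Cdk2 at the entry into S phase, moved in opposite directions in shOpa1 against shNT. Neither passed in the double knockdown against shNT. Ccne1 (chr7:38097984-38107490) had 18.4, 19.1 and 20.7 CPM in shOpa1 libraries, 16.7, 18.3 and 18.2 CPM in double-knockdown libraries and 13.5, 14.4 and 12.9 CPM in shMtfr1l libraries, against 16.5, 13.7 and 12.3 CPM in shNT libraries. Ccne2 (chr4:11191354-11204779) had 11.1, 12.9 and 14.9 CPM in shOpa1 libraries, 13.03, 17.4 and 15.6 CPM in double-knockdown libraries and 16.6, 18.9 and 24.7 CPM in shMtfr1l libraries, against 19.5, 18.3 and 15.3 CPM in shNT libraries. The shOpa1 libraries lay above shNT for Ccne1 (1.37-fold, adjusted p = 0.0132) and below shNT for Ccne2 (1.36-fold lower, adjusted p = 0.0461). The Ccne1 call did not hold without shOpa1 replicate 3 (0.0543) or shNT replicate 3 (0.0796). The Ccne2 call did not hold without shOpa1 replicate 1 (0.183) or 2 (0.0874), or shNT replicate 1 (0.148) or 2 (0.121).

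E2f1, the transcription factor of the G1 to S transition, averaged 31.5 ± 4.21 CPM in shOpa1, 30.9 ± 3.01 CPM in double-knockdown and 28.2 ± 2.47 CPM in shMtfr1l libraries, against 30.4 ± 3.60 CPM in shNT libraries, and all groups overlapped. The chromatin assembly subunits Chaf1a and Chaf1b, which place histones on new DNA, did not pass, with Chaf1a at 29.3 ± 3.83 CPM in shOpa1 and 30.5 ± 2.53 CPM in double-knockdown libraries, against 25.1 ± 2.08 CPM in shNT libraries. Uhrf1, which guides maintenance of DNA methylation, averaged 34.1 ± 2.65 CPM in double-knockdown and 33.4 ± 4.29 CPM in shMtfr1l libraries, against 27.6 ± 4.22 CPM in shNT libraries (adjusted p = 0.1 for the double knockdown and 0.232 for shMtfr1l). Slbp, which binds the stem-loop of histone mRNAs, had 15.7, 19.2 and 16.3 CPM in shMtfr1l libraries, against 20.7, 20.9 and 21.6 CPM in shNT libraries. The shMtfr1l libraries lay below shNT for Slbp, but the difference did not pass (log2 -0.31 ± 0.14, adjusted p = 0.196).

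Mki67, Top2a and Bub1b were the mitosis genes that rose in the double knockdown against shNT. Mki67 (chr7:135689788-135716379), which coats mitotic chromosomes and marks dividing cells, had 128, 133 and 142 CPM in double-knockdown libraries, 103, 85.8 and 127 CPM in shOpa1 libraries and 126, 142 and 117 CPM in shMtfr1l libraries, against 107, 102 and 108 CPM in shNT libraries. The double knockdown and shMtfr1l lay above shNT, while shOpa1 spread from below to above shNT. Mki67 was 1.27-fold higher in the double knockdown (0.34 ± 0.10, adjusted p = 0.011), 1.21-fold higher without passing in shMtfr1l (0.28 ± 0.10, adjusted p = 0.0758) and at 0.994-fold in shOpa1 (-0.01 ± 0.10, adjusted p = 0.957). The double-knockdown call did not hold without double-knockdown replicate 3 (0.0545), shNT replicate 2 (0.0532) or, over all libraries, with robust dispersions (0.0547). The shMtfr1l difference passed without shMtfr1l replicate 3 (0.0413) and with DESeq2 (0.0493). Top2a (chr11:98992947-99024189), which untangles sister DNA, had 131, 122 and 144 CPM in double-knockdown libraries, 129, 122 and 130 CPM in shOpa1 libraries and 122, 119 and 106 CPM in shMtfr1l libraries, against 107, 114 and 114 CPM in shNT libraries. Double-knockdown and shOpa1 libraries lay above shNT, by 1.18-fold (adjusted p = 0.0101) and 1.14-fold (adjusted p = 0.0429). With the replicate number as a block the shOpa1 value of Top2a was 0.0617, and it did not hold without shOpa1 replicate 1 (0.115) or 3 (0.122), or shNT replicate 1 (0.138), 2 (0.0695) or 3 (0.069). The double-knockdown call of Top2a did not hold without double-knockdown replicate 3 (0.085).

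**Figure D4:**
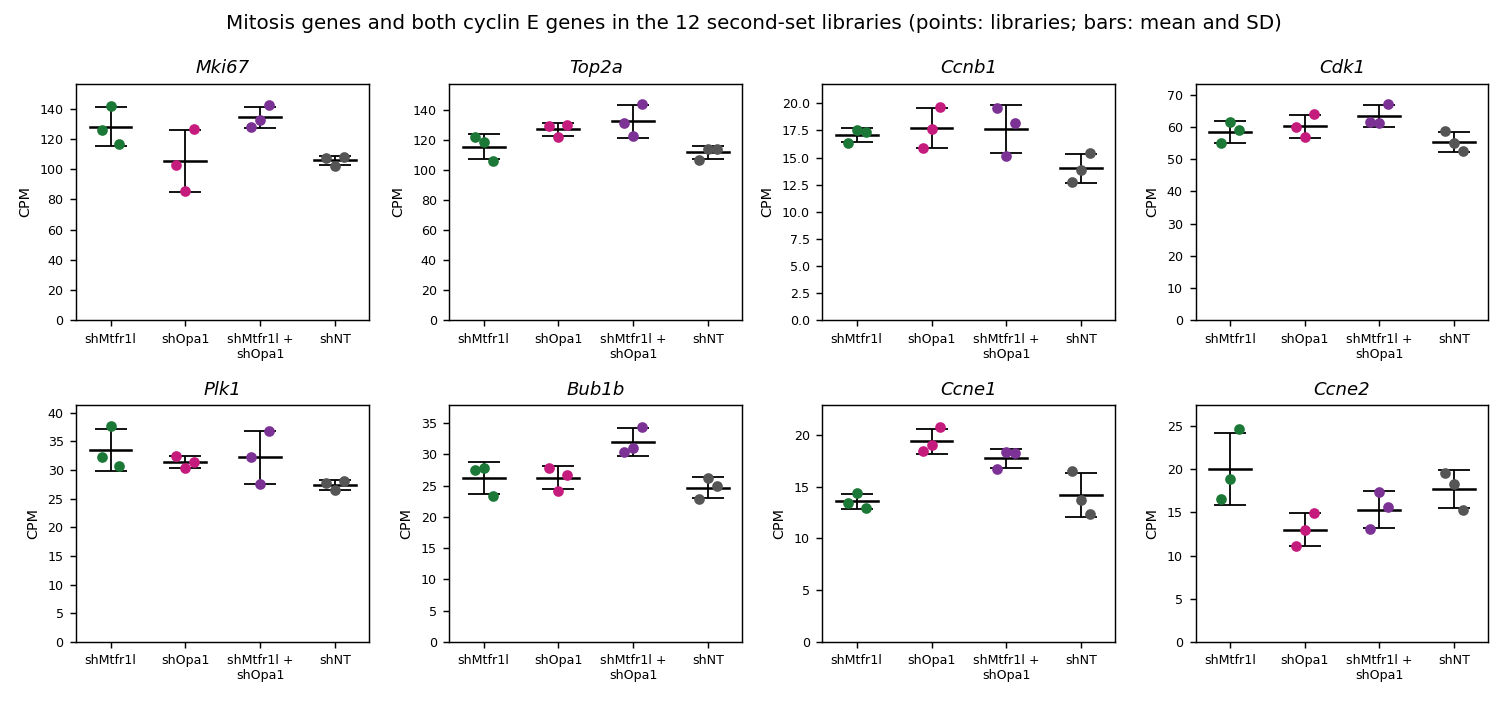
CPM of 6 mitosis genes and of the cyclin E genes Ccne1 and Ccne2 in the 12 second-set libraries (points, with group mean and SD). Mki67 of shOpa1 libraries spreads from 85.8 to 127 CPM around the shNT libraries, and Ccne1 and Ccne2 of shOpa1 libraries lie on opposite sides of shNT.

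Spindle checkpoint genes rose in part. Bub1, a kinase of the checkpoint, had 22.7, 16.4 and 27.1 CPM in shOpa1 libraries and 22.2, 20.7 and 22.02 CPM in double-knockdown libraries, against 15.3, 17.1 and 16.8 CPM in shNT libraries. In shOpa1, replicate 2 lay within the shNT range and replicates 1 and 3 above it, so the call (1.34-fold, adjusted p = 0.0384) rests on those libraries. It did not hold without any 1 of shOpa1 replicates 1 (0.096) and 3 (0.269) and shNT replicates 1 (0.112), 2 (0.069) and 3 (0.0766), nor with the replicate number as a block (0.0609). In the double knockdown Bub1 was 1.32-fold higher without passing (adjusted p = 0.0598). Bub1b, whose protein BubR1 holds back the anaphase-promoting complex, had 30.4, 31.0 and 34.5 CPM in double-knockdown libraries and 27.9, 24.2 and 26.7 CPM in shOpa1 libraries, against 22.9, 26.2 and 25.0 CPM in shNT libraries. The double-knockdown libraries lay above all shNT libraries (1.29-fold, adjusted p = 0.0146), a call that did not hold without double-knockdown replicate 3 (0.077) or shNT replicate 1 (0.0642). Cdc20, which activates that complex, averaged 40.5 ± 2.34 CPM in shOpa1, 42.2 ± 5.53 CPM in double-knockdown and 39.3 ± 6.04 CPM in shMtfr1l libraries, against 41.2 ± 6.62 CPM in shNT libraries.

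Cyclins A2, B1 and B2 and the kinases Cdk1, Plk1, Aurka and Aurkb did not pass against shNT. Cdk1, the kinase that starts mitosis, had 61.6, 61.4 and 67.3 CPM in double-knockdown libraries, 59.9, 56.8 and 64.0 CPM in shOpa1 libraries and 54.9, 61.4 and 59.0 CPM in shMtfr1l libraries, against 58.7, 55.2 and 52.5 CPM in shNT libraries. Its 95% interval was -0.04 to 0.28 in shOpa1 and 0.04 to 0.36 in the double knockdown (adjusted p = 0.0726). Cyclin B1 (Ccnb1) had 15.9, 17.6 and 19.7 CPM in shOpa1 libraries, 19.5, 15.2 and 18.1 CPM in double-knockdown libraries and 16.3, 17.5 and 17.4 CPM in shMtfr1l libraries, against 12.8, 13.8 and 15.5 CPM in shNT libraries. The shOpa1 and shMtfr1l libraries of Ccnb1 lay above shNT and double-knockdown replicate 2 within it, with adjusted p of 0.0732, 0.244 and 0.0939 in shOpa1, shMtfr1l and the double knockdown. Cyclin B2 (Ccnb2) averaged 23.9 ± 0.353 CPM in shOpa1 libraries, 28.1 ± 1.76 CPM in double-knockdown and 28.7 ± 2.04 CPM in shMtfr1l libraries, against 24.8 ± 1.29 CPM in shNT libraries. Cyclin A2 (Ccna2) averaged 59.2 ± 6.99 CPM in shOpa1 and 63.1 ± 1.14 CPM in shMtfr1l libraries, against 58.2 ± 1.19 CPM in shNT libraries. Of the mitotic kinases, Plk1 had 32.2, 37.7 and 30.6 CPM in shMtfr1l libraries and 32.5, 30.4 and 31.4 CPM in shOpa1 libraries, against 27.7, 26.5 and 28.1 CPM in shNT libraries. Both groups lay above shNT for Plk1, with an adjusted p of 0.113 in shMtfr1l and 0.197 in shOpa1. Aurora B (Aurkb) averaged 22.2 ± 1.52 CPM in double-knockdown and 21.2 ± 1.04 CPM in shOpa1 libraries, against 17.5 ± 2.05 CPM in shNT libraries (adjusted p = 0.0678 for the double knockdown and 0.125 for shOpa1), and Aurora A (Aurka) averaged 18.9 ± 0.308 CPM in double-knockdown and 17.3 ± 4.98 CPM in shOpa1 libraries, against 15.99 ± 1.13 CPM in shNT libraries.

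The motors and spindle proteins showed no call against shNT. Kif11, the motor that pushes spindle poles apart, averaged 33.4 ± 0.326 CPM in shOpa1, 33.8 ± 3.59 CPM in double-knockdown and 34.0 ± 1.73 CPM in shMtfr1l libraries, against 28.3 ± 4.27 CPM in shNT libraries, where replicate 1 had 33.2 CPM and the others 26.1 and 25.5 CPM. Without shNT replicate 1 its difference passed in each knockdown group (adjusted p = 0.0313 for shMtfr1l, 0.0157 for shOpa1 and 0.0141 for the double knockdown). Kif20a, a motor of cytokinesis, had 73.9, 78.5 and 82.4 CPM in shOpa1 libraries, against 72.7, 69.1 and 64.7 CPM in shNT libraries (1.14-fold, adjusted p = 0.0587). Kif23 and Prc1, which bundle the central spindle, were among the 5 of 21 mitosis genes with an unadjusted p under 0.05 in shMtfr1l. The others were Mki67, Plk1 and Kif11, and 3063 of all 14162 genes had such a value. Kif23 averaged 30.2 ± 0.625 CPM in shMtfr1l libraries, against 23.6 ± 1.72 CPM in shNT libraries (1.28-fold, adjusted p = 0.0858), and Prc1 averaged 69.0 ± 2.86 CPM in shMtfr1l libraries, against 58.5 ± 1.20 CPM in shNT libraries (1.18-fold, adjusted p = 0.0768). In shOpa1 libraries Kif23 averaged 23.4 ± 3.01 CPM and Prc1 57.6 ± 3.85 CPM. The survivin gene Birc5, the spindle assembly factor Tpx2, the microtubule binder Nusap1 and the kinetochore genes Cenpe and Cenpf did not pass in any knockdown group against shNT, with log2 fold changes from -0.24 (Nusap1 in the double knockdown) to 0.25 (Birc5 in shMtfr1l).

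The double knockdown was also set against each single knockdown, but the shared target was less lowered in the combination: Mtfr1l stood 1.66-fold above its shMtfr1l level (adjusted p = 8.08e-05) and Opa1 2.04-fold above its shOpa1 level (adjusted p = 0.000488). The added shRNA and the weaker shared knockdown cannot be told apart in these comparisons. Against shMtfr1l, 7 replication genes were higher and 0 lower, where 10.2% of all genes were higher and 11.3% lower, and 2 mitosis genes were higher and 0 lower. Cdt1 differed most: its double-knockdown libraries (17.7 to 22.7 CPM) lay above its shMtfr1l libraries (9.92 to 11.6 CPM), by 1.90-fold (0.93 ± 0.15, adjusted p = 0.000113). Mcm5 was 1.399-fold higher in the double knockdown than in shMtfr1l (adjusted p = 0.000854). Those calls held in all 15 alternatives, whereas those of Orc1 (1.87-fold, adjusted p = 0.0184), Mcm2 (1.252-fold, 0.0176), Mcm6 (1.16-fold, 0.0204), Rrm2 (1.2502-fold, 0.0164) and Ccne1 (1.31-fold, 0.0456) did not. Without single libraries the adjusted p of Orc1 was 0.0946 (shMtfr1l replicate 2), 0.075 (double-knockdown replicate 1) and 0.0547 (double-knockdown replicate 2). That of Mcm2 was 0.0607 (shMtfr1l replicate 1), 0.0779 (shMtfr1l replicate 3) and 0.132 (double-knockdown replicate 1). That of Mcm6 was 0.0757 and 0.0706 without shMtfr1l replicates 1 and 2, and 0.0613 and 0.0572 without double-knockdown replicates 2 and 3. That of Rrm2 was 0.0539 and 0.0607 without shMtfr1l replicates 1 and 2, and 0.0569 and 0.0524 without double-knockdown replicates 1 and 3. Ccne1 lost its call without any 1 of the 6 libraries (0.0561 to 0.129) and with the replicate block (0.0634). Top2a (1.15-fold, 0.0418) and the spindle factor Tpx2 (1.17-fold, 0.0382) were the mitosis genes, and with the replicate block their adjusted p was 0.0631 and 0.0534. Top2a also lost its call without shMtfr1l replicate 2 (0.0544) or 3 (0.207) or double-knockdown replicate 1 (0.0813) or 3 (0.233), and Tpx2 without shMtfr1l replicate 1 (0.132) or 3 (0.113) or double-knockdown replicate 1 (0.12) or 3 (0.16). Of 7 cardiomyocyte markers all 7 were lower in the double knockdown (sums of 1853 to 1907 CPM) than in shMtfr1l (3040 to 3261 CPM), with a median log2 fold change of -1.27. Of 5 leukocyte markers 4 were higher in the double knockdown (515 to 667 CPM) than in shMtfr1l (126 to 458 CPM). Their part in these calls was not tested.

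Against shOpa1, the double knockdown differed in 2 of the 45 genes, where 2.05% of all genes were higher and 2.17% lower. Rrm1 was 0.857-fold (108 to 112 CPM in double-knockdown libraries, against 125 to 131 CPM in shOpa1 libraries; adjusted p = 0.0374), and its groups did not overlap. Mki67 was 1.28-fold higher (128 to 142 CPM in double-knockdown libraries, against 85.8 to 127 CPM in shOpa1 libraries; adjusted p = 0.0372). Both calls depended on single libraries: that of Rrm1 did not hold without any 1 of the 6 libraries (0.0749 to 0.132), and that of Mki67 did not hold with the replicate block (0.0552), nor without shOpa1 replicate 1 (0.129) or 2 (0.229) or double-knockdown replicate 1 (0.064), 2 (0.0949) or 3 (0.158). For Mcm5 the double knockdown and shOpa1 differed by a log2 of 0.01 ± 0.10, and for Mcm6 by 0.03 ± 0.07. In the interaction, which asks whether one knockdown changes the effect of the other, 0 of the 45 genes passed by edgeR, where 1.27% of all genes were higher and 1.59% lower. At an unadjusted p under 0.05 there were 3 of 24 replication genes and 0 mitosis genes, beside 2169 of all 14162 genes. The smallest adjusted p of the 45 genes was 0.164 (Mcm3, log2 -0.32 ± 0.12).

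The Mtfr1l knockdown can also be read in the first set, where 3 count columns belong to each sample and there is no test. The labels do not say whether these columns are cultures or sequencing runs, so they do not count as replicates. Mtfr1l had 8.73 CPM in the shMtfr1l sample, against 79.3 CPM in the shNT sample. Mitosis genes stood higher in that shMtfr1l sample: 19 of 21 had a positive difference, with a median log2 difference of 0.40 beside 0.00 for all genes. Bub1 (18.9 CPM in shMtfr1l, against 11.3 CPM in shNT), Plk1 (27.2 against 16.6 CPM), Bub1b (21.2 against 13.7 CPM) and Birc5 (19.6 against 12.9 CPM), the inhibitor of apoptosis in the Aurora B complex, were more than 1.5-fold higher. Of all 13766 genes kept in that set 4.21% were higher by that much and 8.37% lower by that much. Summed over the mitosis genes, the columns of the shMtfr1l sample had 768, 767 and 807 CPM and those of the shNT sample 618, 586 and 623 CPM, without overlap. Replication genes had a median of 0.24, with 19 of 24 positive, and Gins1 (3.66 CPM in shMtfr1l, against 2.16 CPM in shNT) was more than 1.5-fold higher. Tpx2 (29.99 CPM in shMtfr1l, against 43.8 CPM in shNT) and Slbp (20.2 against 28.1 CPM) went the other way, and all 3 columns of shMtfr1l lay below those of shNT for both. Markers of other cells differed in the same shMtfr1l sample. The median log2 difference was 0.82 for 7 cardiomyocyte markers (6 positive), -0.94 for 5 macrophage and leukocyte markers (4 negative), -0.82 for 5 epicardial and mesothelial markers (4 negative), -0.62 for 5 smooth muscle and pericyte markers (5 negative), -0.61 for 5 endothelial markers (4 negative) and -0.28 for 7 fibroblast markers (6 negative). Of 62 other mitosis genes 59 had a positive difference there too, with a median of 0.39. The part of these cell types in the differences was not tested.

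Set beside the second set, the sign of the shMtfr1l difference was the same for 18 of 21 mitosis genes (85.71%), for 14 of 24 replication genes (58.33%) and for 62.67% of all 13494 genes in both sets. The size was not the same: the mitosis median of 0.40 in the first set stood against 0.12 in the second, where no mitosis gene passed. Kif23 was higher in shMtfr1l in both sets, at 0.48 and 0.35 on the log2 scale. Mcm6 was the replication gene called in the second set (0.25), and it was lower in the shMtfr1l sample of the first set (-0.16). The tables were scaled separately, so levels are not compared between them.

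**Figure D5:**
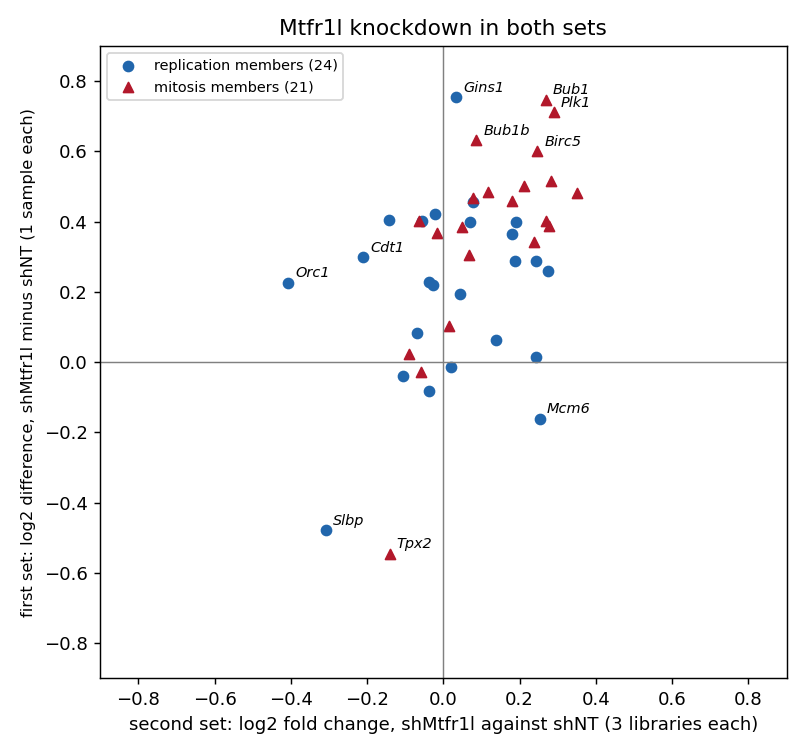
Log2 difference of shMtfr1l and shNT in the second set (x axis, 3 libraries each) and in the first set (y axis, 1 sample each) for the 24 replication genes (circles) and 21 mitosis genes (triangles). Most mitosis genes lie in the upper right, while Tpx2 and Slbp lie in the lower left and Mcm6 lies below 0 on the y axis.

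Among the other listed replication genes the calls with Opa1 knockdown against shNT were all upward, while most genes did not pass. Of 54 other replication genes 16 were higher and 0 lower in shOpa1 against shNT, where 14% of all genes were higher, and 19 were higher and 0 lower in the double knockdown, where 11.8% of all genes were higher. Leaving out any 1 library gave 13 to 16 higher in shOpa1 and 9 (without double-knockdown replicate 3) to 16 higher in the double knockdown, with 10, 11 and 14 without shNT replicates 3, 2 and 1. Leaving out 1 replicate of every group gave 10 to 12 in shOpa1 and 9 to 11 in the double knockdown. Against shMtfr1l, 5 of the 54 were higher and 1 lower in the double knockdown, where 10.2% of all genes were higher and 11.3% lower. Cdc25a, the phosphatase that activates Cdk2 at the entry into S phase, averaged 38.3 ± 4.11 CPM in shOpa1, 33.5 ± 4.13 CPM in double-knockdown and 24.2 ± 1.95 CPM in shMtfr1l libraries, against 17.9 ± 1.43 CPM in shNT libraries (SD, n = 3 each). It rose 2.14-fold in shOpa1 (adjusted p = 1.97e-07), 1.88-fold in the double knockdown (adjusted p = 5.68e-06) and 1.36-fold in shMtfr1l (adjusted p = 0.0192). In shOpa1 the maintenance methyltransferase Dnmt1 rose 1.39-fold (adjusted p = 5.34e-05), the histone chaperone Asf1b 1.77-fold (0.000175) and the polymerase alpha subunit Pola1 1.52-fold (0.000435). In the double knockdown the flap endonuclease Fen1 rose 1.70-fold (6.7e-05), Dnmt1 1.36-fold (0.000171) and the ligase Lig1 1.39-fold (0.000473). Lig1 was also higher in shMtfr1l, by 1.24-fold (adjusted p = 0.0345), where Cdc25a and Lig1 were the 2 of 54 that passed, beside 5% of all genes higher. The Lig1 call was lost with the replicate block (0.054), on the 2 groups alone (0.0739), and without shMtfr1l replicate 2 (0.192) or shNT replicate 1 (0.0598), 2 (0.119) or 3 (0.0872). The shMtfr1l call of Cdc25a was lost without shMtfr1l replicate 1 (0.0977) or 3 (0.0508) or shNT replicate 2 (0.0979) or 3 (0.0586).

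Of 62 other mitosis genes tested 5 were higher and 1 lower in shOpa1 against shNT, 10 higher and 1 lower in the double knockdown, and 2 higher and 1 lower in shMtfr1l. Over all genes 14% were higher and 14.8% lower in shOpa1, 11.8% higher and 11.6% lower in the double knockdown, and 5% higher and 4.79% lower in shMtfr1l. The 10 of the double knockdown became 3 without double-knockdown replicate 3, and the 5 of shOpa1 became 3 without shNT replicate 3. The chromosomal passenger gene Cdca8 rose 1.45-fold in shOpa1 (adjusted p = 0.00102) and 1.61-fold in the double knockdown (0.00012), and its partner Incenp rose 1.45-fold in the double knockdown (0.000999). Gtse1, a microtubule-binding protein of G2, rose 1.42-fold in shOpa1 (0.000474), and cyclin F (Ccnf) rose 1.44-fold in shOpa1 (0.0111) and 1.56-fold in the double knockdown (0.00303). The lamin gene Lmnb1 rose 1.21-fold in the double knockdown (0.00669) and the hyaluronan-mediated motility gene Hmmr 1.23-fold in shOpa1 (0.0161). Lmnb1 was at 0.0537 without double-knockdown replicate 3 and 0.0501 without shNT replicate 2, and Hmmr at 0.0931 without shOpa1 replicate 1 and 0.0902 without shNT replicate 3. In shMtfr1l the centromeric histone Cenpa was 1.28-fold higher (0.00724, and 0.0519 without shNT replicate 3) and Psrc1, a microtubule regulator, was 1.37-fold lower (0.00732). With 1 replicate of every group left out, Psrc1 was at 0.113 (replicate 1) and Cenpa at 0.0617 and 0.0674 (replicates 2 and 3). The condensin subunit Ncapg2 was 1.30-fold higher (0.0456), a call lost with the replicate block (0.0658), with DESeq2 size factors (0.0512) and without shMtfr1l replicate 2 (0.123) or 3 (0.124) or shNT replicate 1 (0.0552), 2 (0.0634) or 3 (0.228).

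Regulators of the cycle moved in both directions. Of 31 regulators 10 were higher and 6 lower in shOpa1 against shNT, 8 higher and 5 lower in the double knockdown and 2 higher and 1 lower in shMtfr1l. These stand beside the same shares of all genes, 28.8%, 23.4% and 9.79% in either direction, and the shMtfr1l count ran from 0 to 3 higher and 0 to 4 lower over the alternatives. Cyclin D3 (Ccnd3), which drives G1, averaged 243 ± 13.8 CPM in shOpa1 and 192 ± 5.76 CPM in double-knockdown libraries, against 142 ± 10.6 CPM in shNT libraries, and rose 1.71-fold in shOpa1 (adjusted p = 5.46e-09) and 1.347-fold in the double knockdown (4.3e-05). The antiproliferative gene Btg2 rose 1.68-fold in shOpa1 (9.56e-09), 1.49-fold in the double knockdown (8.76e-07) and 1.19-fold in shMtfr1l (0.0157, but 0.0682 and 0.0507 without shMtfr1l replicates 1 and 3 and 0.0614 without shNT replicate 2). Gas1, a gene of growth arrest, was 1.91-fold lower in shOpa1 (1.16e-08), 1.83-fold lower in the double knockdown (7.07e-08) and 1.28-fold lower in shMtfr1l (0.00575, but 0.0503 without shNT replicate 3). Cdkn1a, the p21 inhibitor of cyclin-dependent kinases, had 485, 482 and 465 CPM in shOpa1 libraries and 420, 443 and 408 CPM in double-knockdown libraries, against 365, 351 and 351 CPM in shNT libraries. The inhibitor therefore rose in the same libraries as the helicase genes, by 1.34-fold in shOpa1 (adjusted p = 2.38e-07) and 1.19-fold in the double knockdown (0.000347). Cyclin D1 (Ccnd1) was 1.32-fold higher in the double knockdown (0.00525, but 0.0515 without double-knockdown replicate 2) and 1.23-fold higher in shOpa1 (0.0336). The shOpa1 call was lost with DESeq2 (0.117), with robust dispersions (0.125) and without shOpa1 replicate 3 (0.18) or shNT replicate 2 (0.0609) or 3 (0.149). Ccnd2 was 1.24-fold lower in the double knockdown (4.82e-05). The inhibitors Cdkn1b and Cdkn2a, the retinoblastoma gene Rb1 and the mitotic factor Foxm1 did not pass in these comparisons, with Foxm1 at 36.5 ± 3.92 CPM in shOpa1, 38.5 ± 5.31 CPM in double-knockdown and 38.0 ± 8.06 CPM in shMtfr1l libraries, against 31.0 ± 2.62 CPM in shNT libraries. In shMtfr1l the inhibitory kinase Wee1 was 1.24-fold higher (0.0451), a call lost with the replicate block (0.0593), without the filter (0.0792), on the 2 groups alone (0.0725) and without any 1 of the 6 libraries (0.065 to 0.192).

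Over the days in the titles none of the 45 genes differed beyond the spread of the libraries. By edgeR with the shRNA group in the model, 0 genes of 14162 passed for day 8 against day 7 and 0 for day 9 against day 7 (0% of all genes called), by DESeq2 also 0 and 0, and 390 and 518 genes had an unadjusted p under 0.05. The median log2 fold change of replication genes was -0.04 on day 8 and -0.03 on day 9, and that of mitosis genes -0.01 and 0.04.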

How the data were processed

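RNA was extracted with Trizol and libraries were made and sequenced by a company, per the labels' protocols. The deposited gene counts were made by the authors with featureCounts 2.0.6, which counted each read mate by itself on the reverse strand with a UCSC mm10 annotation, per the file headers, and the submitters' processing notes name FastQC and DESeq2. For the aligner, no name is given in the sources used here. Because both mates of a pair were counted, 65.86% of the low counts (1 to 20) were even in the second set, as were 72.51% in the first, and a count is not an independent fragment.

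The second set (12 libraries, 3 in each of 4 groups) was tested with edgeR 4.0.16 (R 4.3.3): genes were kept by filterByExpr (14162 of 23420), scaled with TMM and fitted over the 4 groups with the quasi-likelihood test and Benjamini-Hochberg adjustment over all genes, with a threshold of 0.05, 8 residual degrees of freedom and a biological coefficient of variation of 12.04%. Every adjusted p in the text is from this test unless DESeq2 1.42.0 is named. Values after ± beside log2 fold changes are standard errors, and intervals are at 95%. Log2 fold changes of the second set are those of the fitted model. A prior count of 2 was used for the log2 differences of the first set and for the correlations between libraries. A floor of 3 counts covers counting error only. With 3 against 3 libraries an exact 2-sided permutation test cannot go below 0.1, so none was used. Replicate libraries of a group differed by more than sampling noise (chi-square per gene 5.32 to 10). The first set had 3 count columns for each of 2 samples, which were summed and not tested. A further 12 count columns, of fibroblasts, could not be tied to a sample and are not analysed here.

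Replicates 1, 2 and 3 carry days 7, 8 and 9 in every group's title, so the labels pair them. The correlation of deviations from the group mean ran from -0.189 to 0.122 (median -0.00188) over 18 pairs with the same number and from -0.136 to 0.195 over 36 pairs with other numbers. The pipeline was checked on simulated counts. All 45 genes, the targeted genes, cell type markers, and from each other list the called genes with the 4 smallest adjusted p per comparison were named, with Ccnd1, Cdkn1a, Cdkn1b, Cdkn2a, Rb1 and Foxm1 added by name. These members and lists were chosen with earlier results of these data known. Knl1, Sgo1, Sgo2a and Adgre1 are not analysed here. Alternatives were DESeq2 size factors, no filter on low counts, the DESeq2 test, the replicate number as a block, the 2 groups alone, each library or replicate left out, and, chosen after seeing the data, robust quasi-dispersions. Promoter sequences are from RefSeq (GRCm38.p6).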

Additional observations from a re-analysis of the deposited data

Results flagged for a closer look

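Outside the 45 genes and the cell type markers, 5 named genes had an interaction of the knockdowns that passed by edgeR's quasi-likelihood test. Both of the 2 targets were higher. Of the other lists, 1 of 54 other replication genes, 2 of 31 regulators and 0 of 62 other mitosis genes passed, all lower. Over all 14162 genes 1.27% were higher and 1.59% lower. Of the markers, 2 of 7 fibroblast and 2 of 5 epicardial and mesothelial genes were higher in the interaction, and 2 of 7 cardiomyocyte genes lower. Each value is the log2 effect of the double knockdown beyond the sum of the single effects. Both targets were less lowered by the combination than by the single shRNAs. An effect of one knockdown on the other therefore cannot be told apart from the weaker knockdown in the combination. The interaction was 0.778 for Mtfr1l (adjusted p = 0.00732, called in 19 of 20 alternatives) and 0.8357 for Opa1 (adjusted p = 0.0322, called in 8 of 20 alternatives and not with the replicate number as a block, 0.0552). The cyclin D3 gene Ccnd3 had -0.5044 (adjusted p = 0.0028, called in 18 of 20 alternatives), the antiproliferative gene Btg2 had -0.4165 (adjusted p = 0.013, called in 17 of 20), and the phosphatase gene Cdc25a had -0.6321 (adjusted p = 0.0382, called in 9 of 20 and not with the replicate block, 0.0672).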

How the results depend on the processing

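Of 37 calls among the 45 genes over the 5 comparisons of knockdown groups, 12 held in all 15 alternatives: Mcm2, Mcm3, Mcm4, Mcm5, Mcm6 and Rrm1 in shOpa1, Mcm3, Mcm5, Mcm6 and Cdt1 in the double knockdown against shNT, and Cdt1 and Mcm5 in the double knockdown against shMtfr1l. The other 25 were lost in at least 1 alternative, and 0 changed sign. Uncalled values of 20 gene comparisons passed in at least 1 alternative. With the replicate number as a block, 0 mitosis genes passed in shOpa1, 0 in the double knockdown against shMtfr1l and 0 against shOpa1, and beside the blocked values given with the results it ended no other call among the 45 genes. Fitted on the 2 groups alone, 1 mitosis gene passed in shOpa1, 1 in shMtfr1l and 0 in the double knockdown against shMtfr1l. Robust dispersions gave 2 replication genes in shMtfr1l and 0 mitosis genes in the double knockdown against shOpa1. Without the filter, 1 mitosis and 2 replication genes passed in shMtfr1l, 1024 genes of all in the double knockdown against shOpa1, 719 in the interaction, and 4 and 5 on days 8 and 9. DESeq2 gave 1 mitosis gene in shMtfr1l and 648 genes in the interaction. Leaving out libraries gave, for all genes, mitosis genes and replication genes, 638 to 1165, 0 to 1 and 0 to 1 in shMtfr1l against shNT. The same ranges were 2926 to 3670, 0 to 2 and 7 to 11 in shOpa1 against shNT, 2121 to 2975, 0 to 5 and 5 to 11 in the double knockdown against shNT, 1769 to 2822, 0 to 2 and 2 to 6 against shMtfr1l, and 132 to 561, 0 to 1 and 0 to 0 against shOpa1. The interaction had 113 to 453 genes. In the first set the mitosis median was 0.46 with total counts in place of TMM, and the replication median was 0.22 with column 1 alone, 0.22 with column 3 alone and 0.30 with total counts. The cause of these shifts was not tested. Genes of few counts, such as Orc1, Gins1, Cdc6 and Mcm10, had the widest intervals.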
